A study of Mus musculus with 12 samples.

Results

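The depletion of 5′ tRNA fragments was examined in the serum of 3 mice that carried a human neuroblastoma xenograft, by comparing 6 of the 12 libraries of the series. For each serum, 1 library was made from RNA depleted of these fragments and 1 from undepleted RNA of the same isolate, so that each mouse (numbers 1046, 1047 and 1069) contributed 1 pair. The animals were female athymic NCr nude mice, 4 to 6 weeks old, which lack functional T cells and therefore tolerate human cells. All 3 mice had received 1000000 SH-SY5Y cells, an established human neuroblastoma line, under the renal capsule, and these sera were taken 2 weeks later. The other 6 libraries came from sera of the same mice drawn before the injection and were used only for a comparison with the tumour-bearing sera. The RNA of each serum came from a volume of 50 μl, prepared from 100 μl of blood, and was eluted in 12 μl. A volume of 6 μl entered each TruSeq small RNA library, with 15 PCR cycles. Biotinylated DNA probes were annealed to the 5′ tRNA fragments, the hybrids were removed with streptavidin beads, and the supernatant was precipitated with ethanol. Depleted RNA was then taken up in a new volume, so 6 μl need not hold the same part of the isolate in both aliquots. The undepleted aliquots are not stated to have passed through beads or precipitation, and no mock-treated aliquot was analysed here. Capture by the probes and loss or gain during the extra handling therefore cannot be told apart in any comparison of the aliquots.

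miRNAs are short RNAs that Dicer cuts from hairpin precursors, and that guide Argonaute proteins to messenger RNAs through the seed near their 5′ end. In blood they circulate bound to proteins or within vesicles, and many of the abundant ones are released by blood cells. 5′ tRNA fragments are made by cleavage of tRNAs in the anticodon loop and are very abundant in murine serum. In a small RNA library they compete with miRNAs for adaptors and for sequencing reads. The counts of the tRNA fragments themselves were not analysed here, so all values below are read counts of mature miRNAs, given separately for mouse and human miRNAs. A read from a miRNA that both species share is counted in both tables.

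mmu-miR-16-5p (MIMAT0000527) was the only mouse miRNA whose miRBase accession could be joined to a name, and its sequence is shown because the study followed its level to look for losses in the depletion. It is abundant in red blood cells and acts on messenger RNAs of the cell cycle and of apoptosis. Its mature sequence, credited to RefSeq on GRCm38.p6, is printed 5′ to 3′ with the seed (bases 2 to 8) in capitals.
mmu-miR-16-5p: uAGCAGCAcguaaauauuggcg
It is cut from a pair of hairpins. The hairpin of Mir16-2 lies on the plus strand at chr3:69009902-69009996, within the gene Smc4 but in none of its exons, and is therefore intronic. The hairpin of Mir16-1 lies on the minus strand at chr14:61631880-61631972 and overlaps an exon of the noncoding gene Dleu2. In the hairpin sequences, 95 and 93 bases long, the mature miRNA is in capitals.
Mir16-2: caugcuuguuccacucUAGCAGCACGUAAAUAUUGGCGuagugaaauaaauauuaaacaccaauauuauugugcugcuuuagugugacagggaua
Mir16-1: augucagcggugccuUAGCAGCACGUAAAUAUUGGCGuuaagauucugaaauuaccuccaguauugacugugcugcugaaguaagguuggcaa
Both give the same mature sequence, so the counts do not tell the loci apart.

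First, the yield of miRNA counts was compared. The depleted aliquots held many times more mouse miRNA counts than the undepleted aliquots in 3 of 3 sera. For mouse 1046 the depleted aliquot held 1781242 counts and the undepleted aliquot 68140, a ratio of 26.1. For mouse 1047 these were 1741384 and 51953, a ratio of 33.5. Mouse 1069 had both the largest depleted library, with 2271549 counts, and the smallest undepleted library, with 49443, a ratio of 45.9. The groups did not overlap, at 1931392 ± 295258 counts in depleted and 56512 ± 10148 in undepleted libraries (SD, n = 3 each). The geometric mean of the ratio was 34.3 (log2 ratio 5.10 ± 0.41, SD, n = 3 sera, two-sided exact permutation test by sign flips, p = 0.25; 3 pairs allow no smaller p). In the human tables the ratios were 27.8, 34.05 and 45.0, in the same order of mice. Total sequencing reads per library were not analysed here, so a higher share of miRNA reads and a larger number of reads cannot be told apart in these ratios.

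The numbers of miRNAs seen rose with the counts. A miRNA was taken as detected with at least 4 counts in a library, the cut-off the study used. In the depleted aliquots 457, 441 and 457 mouse miRNAs were detected for mice 1046, 1047 and 1069, compared to 170, 157 and 150 in the undepleted aliquots. The gain was 292.7 ± 12.5 miRNAs (SD, n = 3 sera, same exact permutation test, p = 0.25). The detected sets were nested almost completely. Of the 170, 157 and 150 miRNAs detected without depletion, 170, 156 and 150 were also detected in the depleted aliquot of the same serum, so that 1 was detected in the undepleted aliquot only.

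**Figure D1:**
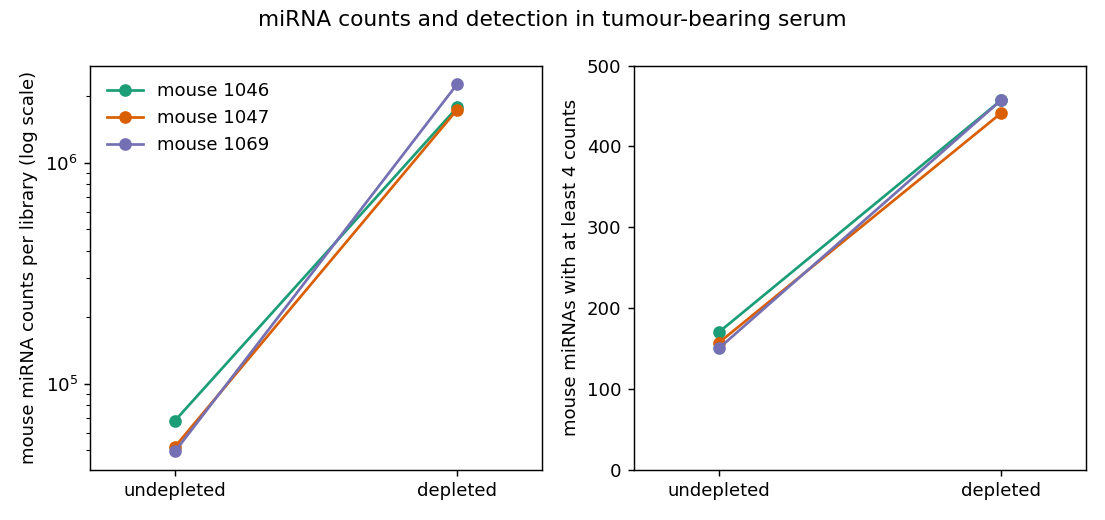
Mouse miRNA counts per library (left, log scale) and number of mouse miRNAs with at least 4 counts (right) in the undepleted and depleted aliquots of each tumour-bearing serum, where each line joins the aliquots of 1 mouse. Depleted libraries held 1741384 to 2271549 counts and 441 to 457 detected miRNAs, above the undepleted libraries with 49443 to 68140 counts and 150 to 170 detected miRNAs.

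Most of the miRNAs gained had few counts, and some had many. In each serum, 287, 285 and 307 miRNAs were detected in the depleted aliquot only, with median counts there of 13, 18 and 17 and highest counts of 2481, 2428 and 3681. Together they held 0.896%, 1.07% and 1.11% of the counts of the depleted aliquots. Of them, 188, 176 and 195 had no count at all in the undepleted aliquot. When all 6 libraries were thinned at random to 49443 counts, the size of the smallest, the gain was 16.5, 14.5 and 13.0 miRNAs (median of 20 draws per library), with 163.0 to 169.0 detected in depleted and 150.0 to 154.0 in undepleted libraries. At matched depth the gain was thus much smaller, and it remained positive in 3 of 3 sera.

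The same was seen by projection. The share of each miRNA in a depleted aliquot was multiplied by the total of the undepleted aliquot of the same serum. Summed over the 3 sera, this gave the count expected among the 169536 undepleted counts if depletion left shares unchanged. Of 780 mouse miRNAs listed in the 6 libraries, 410 had no count in any undepleted aliquot, and 405 of these were projected to fewer than 3 counts. The remaining 5 were projected to at least 3 counts, and the highest projection was 14.4. That miRNA had 165, 140 and 178 counts in the depleted aliquots. Its share of the pooled depleted libraries was 83.4 CPM (counts per 1000000 counts). For its absence from the undepleted libraries a limit of 3 counts in the 3 libraries together was taken, or 17.7 CPM. Against this limit, which covers counting error only, the share was at least 4.71-fold higher. The miRNA was picked from the 410 by its absence and its projection, so this fold is conditioned on that choice. In the test of fold changes, which uses the same counts, this miRNA had an adjusted p = 0.00313 (DESeq2, Benjamini-Hochberg). It was the only 1 of the 410 that was called changed in the test described below. Conversely, 8 miRNAs were counted only in undepleted aliquots, none with more than 2 counts in all.

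**Figure D2:**
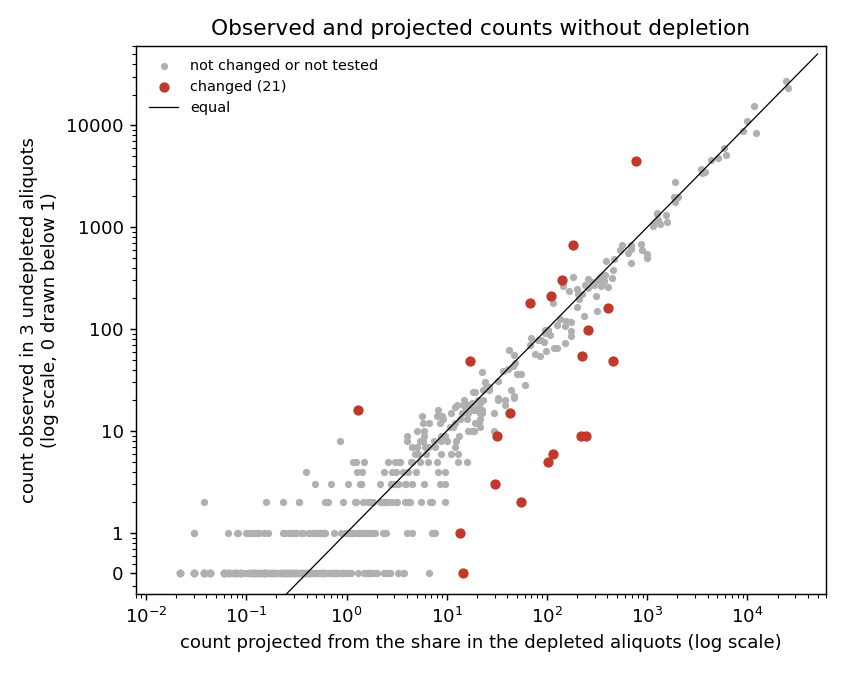
Count observed in the 3 undepleted aliquots together (vertical, log scale, 0 drawn below 1) against the count projected from the share of each mouse miRNA in the depleted aliquots (horizontal, log scale). Each point is 1 miRNA, the line marks equal values and red points are the 21 miRNAs called changed. Most of the 410 miRNAs at 0 sit at projections below 3.

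The summed share of the most abundant miRNAs was similar with and without depletion, while single ones among them moved up or down. The 10 miRNAs with the largest shares without depletion held 67.5%, 66.8% and 67.7% of the mouse counts of the undepleted aliquots (mice 1046, 1047 and 1069). The same 10 miRNAs held 66.0%, 66.9% and 68.3% of the depleted aliquots. The number of miRNAs that made up 90% of the counts was 31, 33 and 32 without and 36, 37 and 36 with depletion, groups that did not overlap. The most abundant miRNA of the undepleted aliquots took 16.3 ± 3.14% of their counts and 14.8 ± 3.71% of those of the depleted aliquots (SD, n = 3 each), a log2 fold change of -0.26 with an adjusted p = 0.836 (DESeq2). The sixth most abundant had a larger share after depletion in 3 of 3 sera, 6.04%, 4.69% and 3.69% without and 8.37%, 7.05% and 5.47% with depletion, although the groups overlapped (log2 fold change 0.38, DESeq2, adjusted p = 0.572). mmu-miR-16-5p had a smaller share in 3 of 3 sera, and MIMAT0004825, with 2.36% to 2.89% of the undepleted counts, fell to 0.438% to 0.478%. Within a serum, log10 counts of miRNAs detected in both aliquots correlated with Pearson r of 0.963 (n = 170), 0.959 (n = 156) and 0.956 (n = 150). These correlations are across miRNAs, which are not independent replicates, and both aliquots share 1 isolate.

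For 64 miRNAs with at least 50 counts in each of the 6 libraries, counting error is small enough to read the ratio within each serum directly. The depleted to undepleted ratio lay within 2-fold of its median for 59 of the 64, or 92.2%, in every serum. It lay within 1.5-fold for 55, 51 and 51. The SD of the log2 ratio across these miRNAs was 0.58, 0.60 and 0.61. The departures were shared between sera: over the 102 miRNAs that reached 10 counts in every library, the log2 ratios correlated with r of 0.898 between mice 1046 and 1047, 0.870 between 1046 and 1069 and 0.911 between 1047 and 1069. Without the changed miRNAs among them, 92 were left and r was 0.707, 0.666 and 0.754. miRNAs that were over- or underrepresented after depletion in 1 serum were thus mostly so in the others.

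Next, the effect on single miRNAs was tested with DESeq2 on the mouse counts, 3 depleted against 3 undepleted libraries. Counts were normalised by median-of-ratios size factors, and changed miRNAs were those with an adjusted p under 0.05 (Benjamini-Hochberg) that differed at least 2-fold between the groups. Of 780 miRNAs fitted, 508 passed the filter on low counts and were tested, and 21 were changed, or 4.13% of those tested. Of these, 14 were higher after depletion (2.76%) and 7 were lower (1.38%). With TMM scaling the split was 22 higher and 6 lower among 28 changed, and with edgeR 24 higher and 7 lower among 31. TMM placed the median log2 fold change of 123 well-counted miRNAs at 0.17, compared to -0.01 with median-of-ratios. A further 15 miRNAs passed the adjusted p but changed less than 2-fold, 10 of them higher and 5 lower, with log2 fold changes from -0.98 to 0.92. All 21 changed miRNAs moved the same way in 3 of 3 sera and had normalised counts that did not overlap between the groups. Of all miRNAs tested, 35.0% did not overlap either. With the mouse as a replicate block, which pairs the aliquots of each serum, 21 miRNAs were changed, and they were the same 21.

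With the 2-fold cut-off, the changed miRNAs were mostly of intermediate abundance. Among the 38 miRNAs that averaged 1000 normalised counts or more, 1 was changed, which was lower. Others of the 38 passed the adjusted p but not 2-fold, in both directions. Examples are MIMAT0000121 (log2 fold change 0.84, adjusted p = 6.21e-07) and MIMAT0000126 (-0.69, adjusted p = 4.72e-05; DESeq2). From 100 to 1000 the number was 11 of 63 (17.5%), with 7 higher and 4 lower. From 10 to 100 it was 9 of 114 (7.89%), with 7 higher and 2 lower. Below 10, 0 of 293 tested were called by DESeq2, where the fold changes that few counts can show are limited by depth. The 21 changed miRNAs together made up 3.76 ± 0.236% of the counts without and 2.07 ± 0.043% with depletion (SD, n = 3 each). The 7 lower ones fell from 3.51% to 0.759%, and the 14 higher ones rose from 0.247% to 1.31%.

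**Figure D3:**
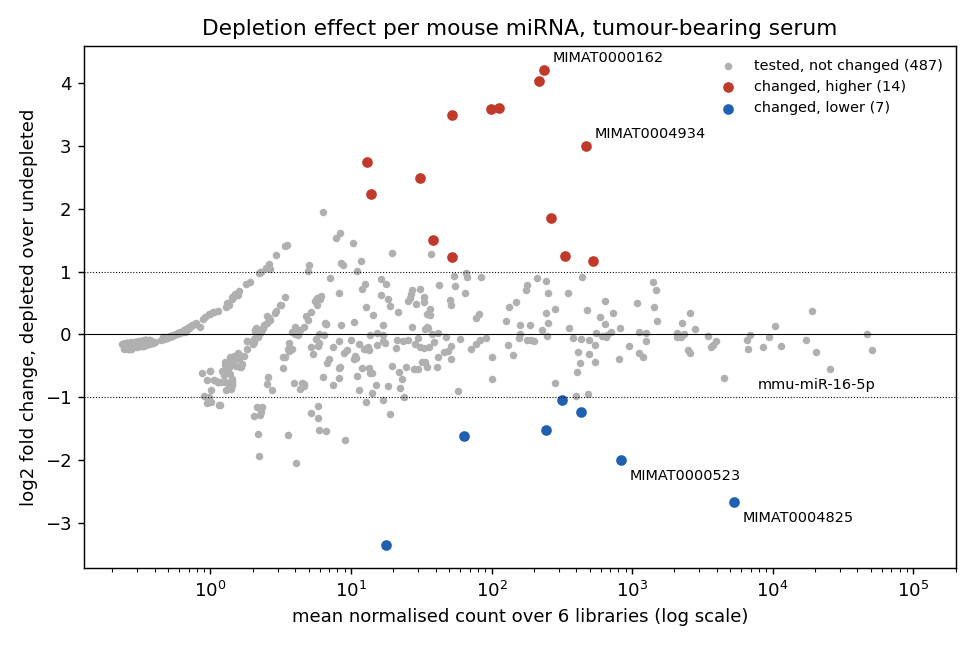
Log2 fold change of depleted over undepleted libraries (vertical, DESeq2) against mean normalised count over the 6 libraries (horizontal, log scale) for 508 mouse miRNAs tested, with dotted lines at 2-fold. Red points are the 14 miRNAs changed and higher, blue points the 7 changed and lower, and grey points the others. Above a mean normalised count of 1000, 1 of 38 miRNAs passed both the adjusted p and the 2-fold cut-off.

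The miRNAs are identified in the tables by miRBase accession only, and the files do not pair accessions with names. Therefore 2 miRNAs that were lower and 2 that were higher, those with the smallest adjusted p in each direction, are given by accession, followed by mmu-miR-16-5p.

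MIMAT0004825 was the most abundant of the changed miRNAs. It had raw counts of 1611, 1440 and 1431 in the undepleted aliquots of mice 1046, 1047 and 1069 and of 8510, 7893 and 9940 in the depleted aliquots. After normalisation these were 8430, 9212 and 9724 without and 1438, 1390 and 1431 with depletion, so that every depleted library lay far below every undepleted one. The means were 9122 ± 652 and 1419 ± 26.1 normalised counts (SD, n = 3 each), with a log2 fold change of -2.67 ± 0.10 (SE; DESeq2, adjusted p = 8.97e-170). Its share of the mouse counts was 2.36%, 2.77% and 2.89% without depletion and 0.478%, 0.453% and 0.438% with depletion. Within the sera the share was 4.95-fold (95% binomial interval 4.69 to 5.22), 6.12-fold (5.78 to 6.47) and 6.61-fold (6.25 to 6.99) lower, so the sera differed in size by more than counting error and not in direction. All such intervals are exact and cover counting error only, since reads copied by PCR are not independent molecules.

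MIMAT0000523 was also lower. It had 303, 202 and 165 raw counts without and 2162, 1895 and 1946 with depletion. The normalised counts were 1585, 1292 and 1121 in undepleted and 365, 334 and 280 in depleted aliquots. The means of 1333 ± 235 and 326 ± 43.0 normalised counts (SD, n = 3 each) gave a log2 fold change of -2.004 ± 0.18 (SE; DESeq2, adjusted p = 1.76e-25). The drop in share was alike in the 3 sera, 3.66-fold (95% interval 3.24 to 4.13), 3.57-fold (3.08 to 4.13) and 3.90-fold (3.30 to 4.57), with intervals that overlapped. The other 5 lower miRNAs had log2 fold changes down to -3.35. The lowest value, with an SE of 0.52, came from a rare miRNA with 5, 4 and 7 raw counts without and 17, 13 and 12 with depletion, which rose far less than the total counts did.

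MIMAT0004934 was higher. It had only 19, 12 and 18 raw counts in the undepleted aliquots, against 4937, 4450 and 6293 in the depleted ones. In normalised counts this was 99.4, 76.8 and 122.3 without and 834, 783 and 906 with depletion. Its mean rose from 99.5 ± 22.8 to 841 ± 61.6 (SD, n = 3 each), a log2 fold change of 3.01 ± 0.24 (SE; DESeq2, adjusted p = 3.61e-34). From its share in the depleted libraries, 459 counts were projected in the undepleted libraries together, and 49 were observed. The rise in share was 9.94-fold (95% interval 6.36 to 16.5), 11.1-fold (6.33 to 21.4) and 7.61-fold (4.81 to 12.8), intervals that overlapped between sera.

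MIMAT0000162 had the largest log2 fold change of the higher miRNAs. It had 3 raw counts in each undepleted aliquot and 2481, 2428 and 3575 in the depleted aliquots, and 245 counts were projected in the undepleted libraries where 9 were observed. The normalised counts were 15.7, 19.2 and 20.4 without and 419, 427 and 515 with depletion, that is 18.4 ± 2.44 and 453.7 ± 53.0 (SD, n = 3 each). The log2 fold change was 4.22 ± 0.42 (SE; DESeq2, adjusted p = 6.01e-22). With so few counts the ratios of the shares were wide, 31.6-fold (95% interval 10.8 to 153.5), 24.1-fold (8.25 to 117.2) and 25.9-fold (8.87 to 125.8). The direction was therefore clear in every serum, and the size was not closely fixed.

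This pattern of very few undepleted counts was common among the higher miRNAs. Of the 14, 8 had at most 3 counts in each undepleted library, 35 counts in all, and between 107 and 3681 counts in each depleted library, 27607 in all. Their log2 fold changes were 2.23 to 4.22. These fold changes rest on few undepleted counts, and their sizes depend on the shrinkage applied. The other 6 higher miRNAs had 1 to 62 counts in each undepleted and 312 to 6293 in each depleted library, with log2 fold changes of 1.17 to 3.01.

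mmu-miR-16-5p was the third most abundant miRNA without depletion and was somewhat lower with depletion. It had 7068, 4871 and 3531 raw counts in the undepleted and 137360, 117140 and 127753 in the depleted aliquots. The normalised counts were 36984, 31162 and 23993 without and 23203, 20622 and 18393 with depletion. The groups did not overlap, although the lowest undepleted value (mouse 1069) was close to the highest depleted one (mouse 1046). Its share of the counts was 10.4%, 9.38% and 7.14% without and 7.71%, 6.73% and 5.62% with depletion, a decrease of 1.35-fold (95% interval 1.31 to 1.38), 1.39-fold (1.35 to 1.43) and 1.27-fold (1.23 to 1.31). The means of 30713 ± 6507 and 20739 ± 2407 normalised counts (SD, n = 3 each) gave a log2 fold change of -0.56 ± 0.19 (SE; DESeq2, adjusted p = 0.0485), which passed the adjusted p but not the 2-fold cut-off. It was not called changed. With TMM scaling the log2 fold change was -0.38 (DESeq2, adjusted p = 0.155), and with the mouse as a replicate block it was -0.55 (DESeq2, adjusted p = 3.77e-11). Without mouse 1046 the adjusted p was 0.0942, without mouse 1047 0.637 and without mouse 1069 0.00593 (DESeq2).

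**Figure D4:**
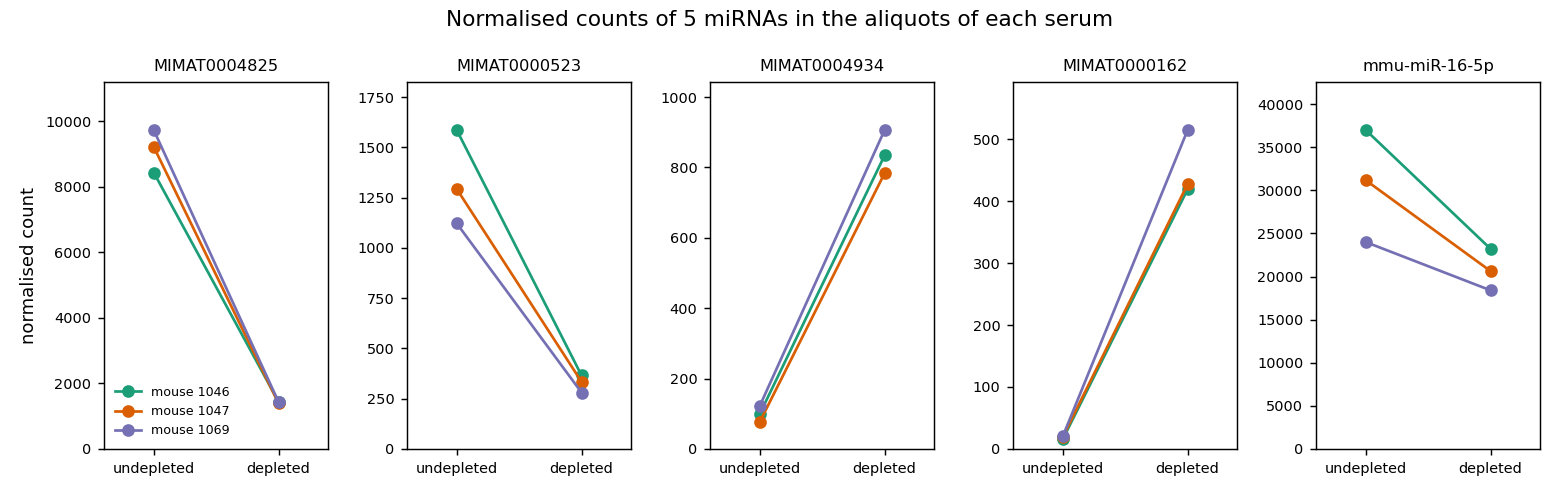
Normalised counts (DESeq2 size factors, linear axes from 0) of 5 mouse miRNAs in the undepleted and depleted aliquots, where each line joins the aliquots of 1 serum. MIMAT0004825, MIMAT0000523 and mmu-miR-16-5p are lower and MIMAT0004934 and MIMAT0000162 higher after depletion in 3 of 3 sera.

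To see whether the effect of depletion was the same in the absence of a tumour, the aliquots of the sera drawn before injection were compared in the same way. There the ratio of depleted to undepleted mouse counts was 13.9, 20.2 and 44.2 (geometric mean 23.2). Of 276 miRNAs tested, 17 were changed (6.16%), 12 higher and 5 lower. Of them, 15 were also changed in tumour-bearing serum, which is 88.2% of those changed before and 71.4% of the 21 changed after injection. The sera were drawn from the same mice but the libraries are separate. All 21 miRNAs changed in tumour-bearing serum had a fold change of the same sign before injection, with a median size of the log2 fold change of 2.13 before and 2.23 after injection. These 21 were chosen by their values after injection.

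The named miRNAs had fold changes of the same sign before injection, smaller in size for 4 of the 5 and larger for MIMAT0000162. All but mmu-miR-16-5p were chosen by their adjusted p in tumour-bearing serum, and each time point was shrunk in its own fit. Sizes at the time points are therefore not on equal terms. The log2 fold change of MIMAT0004825 was -2.13 ± 0.33 (SE), that of MIMAT0000523 -1.36 ± 0.33, that of MIMAT0004934 2.30 ± 0.35, that of MIMAT0000162 4.44 ± 0.62 and that of mmu-miR-16-5p -0.48 ± 0.31. The difference itself was tested as an interaction of depletion and time point over all 12 libraries. None of 874 miRNAs passed (0.0%; DESeq2, smallest adjusted p = 0.998), while 3 had an unadjusted p under 0.05 with DESeq2 and 11 with edgeR. For MIMAT0004825 the interaction, on the log2 scale as after minus before, was -0.45 (95% interval -1.14 to 0.24). For MIMAT0000523 it was -0.58 (-1.27 to 0.10), for MIMAT0004934 0.67 (-0.04 to 1.39), for MIMAT0000162 -0.59 (-2.51 to 1.32) and for mmu-miR-16-5p -0.04 (-0.72 to 0.63). Over the 21 changed miRNAs the estimates ran from -1.05 to 1.61 with SEs of 0.28 to 1.79 (median 0.83). These intervals come from a fit without a block, which does not use the pairing of the aliquots. Differences of up to about their size were therefore not detectable in that fit with 3 sera per time point. With the serum as a block, 0 miRNAs passed as well (DESeq2).

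**Figure D5:**
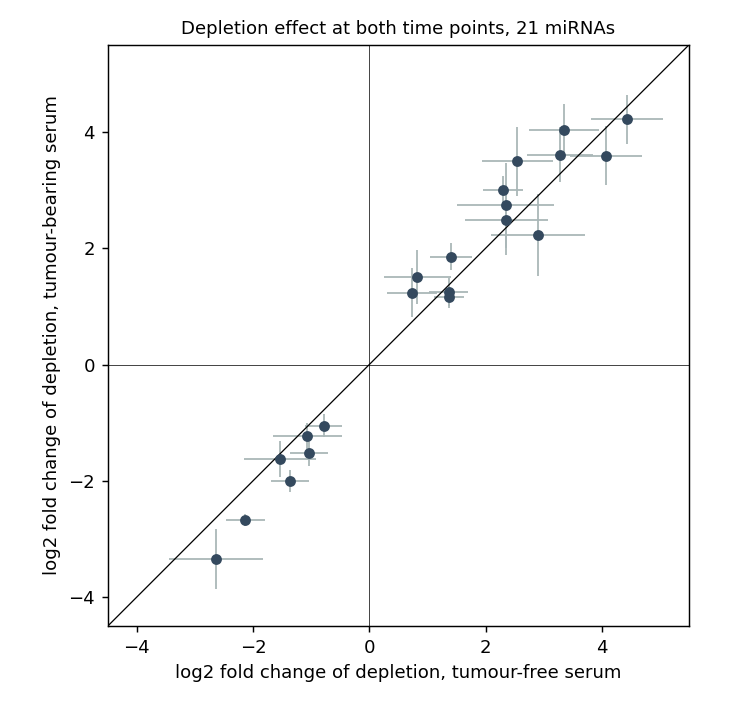
Log2 fold change of depleted over undepleted aliquots in tumour-bearing serum (vertical) against tumour-free serum (horizontal) for the 21 miRNAs changed in tumour-bearing serum, with bars of 1 SE from DESeq2 and a line of equal values. All 21 have the same sign at both time points. They were chosen by their values on the vertical axis.

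The human tables were used for miRNAs of human sequence in the same libraries. Such reads can come from the xenograft or, where both species share the sequence, from the mouse. Human and mouse entries were taken as counterparts where their counts differed by at most 10% of their sum over the 6 libraries. The rule compares counts and not sequences, so a human entry without a counterpart may still be shared with the mouse. Most counts lie in the depleted libraries, so different miRNAs with similar depleted counts may also be matched. Of 446 human miRNAs listed, 288 were tested and 18 changed (6.25%), 11 higher and 7 lower. With edgeR 23 were changed, 17 higher and 6 lower. Of the 18, 17 had a mouse counterpart by this rule, so they may largely be the reads already described. By the same rule 19 of the 21 changed mouse miRNAs had a human counterpart, as had 342 of the 508 mouse miRNAs tested (67.3%).

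By this rule, 1 changed human miRNA had no mouse counterpart. It was MIMAT0000259, whose counts differed by 12.9% from those of the nearest mouse entry, not far above the limit. That mouse entry was not changed by depletion (log2 fold change 0.22, DESeq2, adjusted p = 0.997). Its nearness in counts is therefore no evidence of a shared sequence. Whether it is specific to human was not tested. It had 81, 82 and 52 raw counts without and 979, 1014 and 710 with depletion. The normalised counts were 409, 528 and 366 in undepleted and 166, 183 and 102 in depleted aliquots, so that the groups did not overlap. The means of 434.6 ± 83.9 and 150.4 ± 42.6 (SD, n = 3 each) gave a log2 fold change of -1.47 ± 0.28 (SE; DESeq2, adjusted p = 2.08e-06). The largest entry of the human tables, MIMAT0002177, took 34.8%, 37.4% and 32.8% of the human counts without and 39.2%, 38.6% and 31.5% with depletion. Its log2 fold change was -0.04 ± 0.15 (SE; DESeq2, adjusted p = 0.975).

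Over all human miRNAs, 283, 304 and 314 were detected in the depleted aliquots of mice 1046, 1047 and 1069 and 135, 124 and 121 in the undepleted ones. With all 6 libraries thinned to 70605 human counts the gain was 4.5, 12.0 and 10.5 miRNAs. Human miRNAs without a mouse counterpart by the count rule, 47 in all, followed the same direction at full depth. They held 42.1%, 41.8% and 34.7% of the human counts with depletion (mice 1046, 1047 and 1069). Most of this was MIMAT0002177, whose counts differed by 72.1% from those of the nearest mouse entry. The 47 were not chosen by sequence and were not tested for human origin. At least 4 counts were reached by 18, 30 and 40 of them in the depleted aliquots of mice 1046, 1047 and 1069, and by 4 in each undepleted aliquot. Among all human miRNAs, 14, of which 12 had no mouse counterpart, had no count in any depleted aliquot before injection and at least 4 counts in at least 2 depleted aliquots after injection. They were chosen by these counts of the depleted libraries, which are given here as a description. Together the 14 had 45, 116 and 559 counts in the depleted aliquots of tumour-bearing serum, and 5, 13 and 14 of them were detected there. In the undepleted aliquots, which did not enter their choice, they had 4, 7 and 9 counts, none of them reached 4 counts in a library, and the largest single count was 3. Of the 14, 8 had a count in at least 1 undepleted aliquot after injection. In the undepleted aliquots before injection, with 34472 to 188479 human counts, all 14 were at 0. By their choice they were also at 0 in the depleted aliquots of the same sera, with 1729906 to 3854909 human counts. Their absence from the shallower undepleted libraries was therefore nearly fixed in advance and adds little.

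The shares of these 14 miRNAs are given for both aliquots as a description, since the depleted shares are conditioned on their choice. For mouse 1046 they made up 16.0 CPM of the human counts (95% exact Clopper-Pearson interval 11.7 to 21.4) with and 39.6 (10.8 to 101) without depletion. For mouse 1047 these were 42.9 (35.4 to 51.5) and 88.1 (35.4 to 182), and for mouse 1069 176 (162 to 191) and 127 (58.3 to 242). With the same limit of 3 counts for a count of 0, an undepleted library allows 29.7, 37.8 and 42.5 CPM, for mice 1046, 1047 and 1069.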

How the data were processed

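The data were miRNA counts of 12 small RNA libraries of murine serum, 3 for each combination of time point and depletion. The authors deposited raw read counts per mature miRNA, 1 mouse and 1 human table per library. Per the study's methods and the submitters' processing notes, the authors trimmed adaptors with Cutadapt 1.8.1, discarded reads under 15 bp or without adaptor, and kept reads in which 80% or more of the bases had a quality of 20 or better (FASTX-Toolkit). Reads were mapped with Bowtie 1.1.2 without mismatches and assigned to miRBase 20 coordinates on GRCm38/mm10 or GRCh37/hg19. Requiring exact matches removes reads with edited or added bases. How reads of several loci were counted is not given in the sources used here, so close paralogs are uncertain. miRNAs missing from a table were taken as 0.

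The main test was DESeq2 1.42.0 in R 4.3.3 (Wald test, independent filtering, normal prior shrinking fold changes towards 0) without a block. The study names DESeq2 as its tool, and the design and settings were chosen here. The interaction was fitted without the prior. edgeR 4.0.16 (quasi-likelihood, TMM) was an alternative. Python 3.11.15 (NumPy 2.4.6, pandas 2.3.3, SciPy 1.17.1) was used for totals, thinning and intervals. Only the main mouse fit was tested on simulated data, drawn as independent libraries without the pairing by serum. The rates found there are not reported here, and the other fits were not tested in this way. Depth was 49443 to 68140 mouse counts without and 1741384 to 2271549 with depletion.

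Aliquots with the same mouse number came from the same serum, so the numbers pair the samples. Over 123 well-counted miRNAs, deviations of same-numbered aliquots from their group means correlated with r of 0.46, 0.46 and 0.41. The mean r between different numbers was -0.22. Deviations from a mean of 3 sum to 0, so this negative value largely follows from the positive ones and adds no separate evidence. Both groups held the same 3 mice. The main fit does not use this pairing, so its p-values set the depletion effect against a spread that includes that between animals. Those of the fits with a replicate block rest on the spread left within pairs.

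Members, lists and tests were chosen with earlier results of these data known. The rule for named miRNAs was the changed ones with the smallest adjusted p, the most abundant ones and mmu-miR-16-5p. Because no table used here joins accessions to names, it was reduced to 2 accessions per direction. For the same reason the 15 lists of miRNA families and cell types, the check of serum against markers, opposite hairpin arms and a comparison with the probe sequences were not used here.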

Additional observations from a re-analysis of the deposited data

How the results depend on the processing

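The count of changed mouse miRNAs was 21, and 15 to 31 under the alternative scalings, tools, filters and left-out mice that kept the 2-fold cut-off, while 36 passed without that cut-off. Leaving out the mice in turn gave 17 to 18 calls, and 15 miRNAs were called in all 3 of these fits. The replicate block, which pairs aliquots by mouse, gave 21 mouse and 18 human calls and changed no call; with edgeR the block gave 31. Thinning the depleted libraries to the undepleted totals left 15 calls, 14 of them among the 21. The split was 66.7% higher, compared to 78.6% with TMM, 77.4% with edgeR, 80.6% with edgeR and the block and 52.9% without mouse 1047. The human count was 18, with 13 to 23 under the alternatives and 31 without the fold cut-off. The gain of 292.7 detected miRNAs was 323 at a minimum of 1 count, 234.3 at 10 counts, 14.7 with all libraries thinned to the smallest total and 173.7 in the human tables. The ratio of 34.3 was 34.9 without the most abundant miRNA and 29.6 to 39.2 without 1 mouse. MIMAT0004825, MIMAT0000523, MIMAT0004934 and MIMAT0000162 were called with the same sign in all 11 alternatives. mmu-miR-16-5p was lower in all 11, with adjusted p from 3.77e-11 to 0.637 and 6 of 11 under 0.05 (DESeq2 or edgeR). The interaction stayed at 0 calls throughout. The cause of these shifts was not tested. Undepleted depth limits the sizes of the higher miRNAs, 3 sera limit p-values of paired totals to 0.25 and above, and without tRNA counts the depletion itself was not measured.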
